A study of Mus musculus with 78 samples.

Results

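The genes described here are the 8 genes of the corticotropin-releasing factor (CRF) and neuropeptide Y (NPY) systems that were listed by name: Crh, Crhr1, Crhr2, Crhbp, Npy, Npy1r, Npy2r and Npy5r. All 8 were present once in each of the 2 deposited count tables, which hold 55367 gene symbols. They were chosen for what they encode and not by a rule on measured values, although earlier results of these data were known. RNA from 7 dissected brain regions of 12 adult mice was sequenced in 78 libraries. The mice were wild type (WT) or carried a constitutive deletion in Acss2 (KO), with 3 mice of each sex and genotype. The enzyme ACSS2 turns acetate, which forms when ethanol is metabolised, into acetyl-CoA. The deletion was made by CRISPR/Cas9 in C57BL6/J embryos and spans exons 3 to 7, and founders were backcrossed to C57BL6/J for 3 generations. How many founder lines gave the KO mice is not given in the sources used here. All mice, WT included, were housed singly and drank ethanol in the drinking-in-the-dark paradigm, a model of binge-like intake. After 1 week of habituation they could choose between water and 15% (v/v) ethanol in daily sessions, which lasted 2 h for the first 3 days and 4 h on day 4. In the second week ethanol was offered on the same kind of schedule with no water in the session. Since every mouse drank, the comparisons below are between regions, genotypes and sexes of drinking mice, with no mouse that drank water alone. The KO animals were males 1, 2 and 10 with females 4, 5 and 6. The WT animals were males 3, 12 and 13 with females 11, 23 and 24. Each region had 12 libraries except the amygdala and the cortex with 11 (2 female WT) and the prefrontal cortex with 8 (1 male KO, 2 male WT, 3 female KO and 2 female WT).

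CRF, the product of Crh, is the peptide that starts the hormonal stress response in the hypothalamus, and in the extended amygdala it acts as a transmitter that promotes arousal and anxiety-like behaviour. It signals through the G protein-coupled receptors CRFR1 (Crhr1) and CRFR2 (Crhr2), and a secreted binding protein, Crhbp, holds free CRF. NPY is an abundant peptide of inhibitory interneurons that opposes many CRF actions. Its receptors couple to inhibitory G proteins: Y1 (Npy1r) and Y5 (Npy5r) lie mainly on target neurons, and Y2 (Npy2r) is best known as a presynaptic receptor that limits transmitter release. Both systems have long been studied in alcohol intake and withdrawal, with the amygdala as the main site.

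In the GENCODE M21 annotation of GRCm38, Crh lies at chr3:19693401-19695396 on the minus strand and Npy at chr6:49822710-49829507 on the plus strand. The CRF receptor genes Crhr1 (chr11:104132855-104175523, plus) and Crhr2 (chr6:55090049-55133016, minus) and the binding-protein gene Crhbp (chr13:95431371-95444924, minus) are unlinked to Crh. Npy1r (chr8:66697192-66706792, plus) and Npy5r (chr8:66679965-66688128, minus) are neighbours on opposite strands with a gap of 9063 bp, and Npy2r lies apart at chr3:82538383-82548084 on the minus strand. No member overlaps another annotated gene. RefSeq promoter sequences (GRCm38.p6) were at hand for 7 of the 8 genes, Crh being the exception. The 250 bases before the start of 4 of them are shown, because the results turn on these genes: Npy2r and Crhr2 had the largest differences between amygdala and cortex, Crhr1 the smallest p between KO and WT, and Npy the highest level. Capitals mark TATAAA and CCAAT on either strand, so that TTTATA and ATTGG count as matches. The windows are chr3:82548086-82548335 (minus strand) for Npy2r, chr6:55133017-55133266 (minus) for Crhr2, chr11:104132531-104132780 (plus) for Crhr1 and chr6:49822460-49822709 (plus) for Npy.
Npy2r: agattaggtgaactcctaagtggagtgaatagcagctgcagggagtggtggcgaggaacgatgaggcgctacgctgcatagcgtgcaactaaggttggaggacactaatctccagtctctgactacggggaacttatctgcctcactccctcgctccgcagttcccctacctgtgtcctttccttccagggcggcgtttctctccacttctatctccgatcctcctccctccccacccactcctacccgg
Crhr2: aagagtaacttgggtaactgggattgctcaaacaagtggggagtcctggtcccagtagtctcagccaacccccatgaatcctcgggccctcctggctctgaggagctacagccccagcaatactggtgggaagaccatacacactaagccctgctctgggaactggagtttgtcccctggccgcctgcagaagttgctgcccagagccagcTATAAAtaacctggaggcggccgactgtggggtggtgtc
Crhr1: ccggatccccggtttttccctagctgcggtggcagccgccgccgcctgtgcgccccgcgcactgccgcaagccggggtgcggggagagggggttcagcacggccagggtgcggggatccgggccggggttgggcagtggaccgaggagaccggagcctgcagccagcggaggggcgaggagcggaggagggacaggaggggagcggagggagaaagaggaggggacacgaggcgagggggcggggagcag
Npy: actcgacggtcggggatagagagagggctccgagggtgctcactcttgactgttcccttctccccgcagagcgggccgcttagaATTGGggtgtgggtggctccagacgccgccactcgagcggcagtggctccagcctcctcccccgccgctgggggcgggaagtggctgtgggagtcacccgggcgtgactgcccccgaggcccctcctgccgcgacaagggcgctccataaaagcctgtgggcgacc
Among the 7 promoters, TATAAA was found in Crhr2 alone, while 12.4% of all 32851 RefSeq mouse promoter windows of this length hold it. CCAAT was found in Npy and Npy5r (33.8% of all windows). The cAMP response element TGACGTCA was found in none of the 7 (1.55% of all windows), and its shorter form TGACG in Crhbp alone (17.8%). By the GENCODE coordinates, 230 of the 250 bases of the Npy1r window, 93 of Crhbp and 34 of Npy5r lie inside the annotated gene. The TGACG match of Crhbp lies in that part of its window. The 4 windows shown lie outside their genes. The windows of Crhr1 and Npy hold 25 and 21 CpG dinucleotides, Npy2r 12 and Crhr2 4, where the median over all windows is 6. These matches describe the letters of the windows and were not related to the read counts.

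The targeted gene followed the genotype labels in every library. Acss2 ranged from 0.971 to 13.96 CPM (CPM, the count per 1000000 counts of the library, median 7.32) in the 40 KO libraries and from 35.9 to 73.8 CPM (median 51.8) in the 38 WT libraries. Gene-level counts do not separate the deleted exons from those that remain. Depth fell into 2 classes: 47 libraries of amygdala, ventral striatum, dorsal striatum and dorsal hippocampus held 4454420 to 14487778 counts, and 31 of ventral hippocampus, cortex and prefrontal cortex held 629635 to 1228828. A value of 3 counts, taken as the floor, stands for 0.207 to 0.673 CPM in the deeper class and for 2.44 to 4.76 CPM in the shallower one, and covers counting error only. Summed marker lists set 6 libraries apart from the others of their region. The amygdala of male WT mouse 12 had 1623 CPM of hypothalamic markers (6.89 to 191 CPM in the other amygdala libraries). Striatal projection neuron markers were low in the ventral striatum of male KO mouse 10 (927 CPM) and male WT mouse 13 (388 CPM) and in the dorsal striatum of male KO mouse 10 (358 CPM) and female WT mouse 23 (196 CPM), where the regional medians were 3988 and 4890 CPM. The ventral hippocampus of female KO mouse 6 held 3468 CPM of these markers (median 125 CPM). In the prefrontal cortex, the library labelled as female WT mouse 23 had no count of Xist and 73.4 CPM of Ddx3y, which goes against its label. Calls of members that changed without these libraries are given beside the results. The list of central amygdala markers did not set the amygdala apart from the striatum: its summed median was 492.5 CPM in the amygdala, 637 CPM in the ventral striatum and 486 CPM in the dorsal striatum, and 270 to 337 CPM in the other regions. It shares Drd2 with the striatal projection neuron list, so its sum cannot show whether the dissections held central amygdala. Basolateral markers summed to a median of 1668 CPM in the amygdala, against 376 and 647 CPM in ventral and dorsal striatum and 1640 to 1886 CPM in cortex, prefrontal cortex and hippocampus.

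Compared per length of exonic sequence, Npy was the highest of the 8 genes in all 78 libraries, and Crhr2 was the lowest, or shared the lowest value, in 68. In the amygdala the median level per kilobase was 61.7 CPM for Npy, 16.9 for Crhbp, 14.2 for Npy2r, 7.88 for Npy1r, 6.48 for Crhr1, 3.63 for Crh, 2.02 for Npy5r and 0.912 for Crhr2. The binding-protein gene therefore exceeded Crh itself in 10 of 11 amygdala libraries per length. In the ventral striatum this order was turned, with Crhbp above Crh in 1 of 12 libraries.

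Crh, the CRF peptide gene, had its highest median in the ventral striatum. It ranged there from 4.44 to 12.1 CPM (median 9.17), against 2.09 to 14.2 CPM (median 6.74) in the cortex and 2.22 to 12.9 CPM (median 4.79) in the amygdala. In the prefrontal cortex the range was 2.11 to 4.88 CPM (median 3.19). The lowest medians were 1.62 CPM in the ventral hippocampus, 1.40 CPM in the dorsal hippocampus and 0.853 CPM in the dorsal striatum. Neighbours in this order overlapped throughout. Ventral and dorsal striatum did not overlap for Crh, by a narrow margin. The highest dorsal library, male KO mouse 10, reached 4.38 CPM and the lowest ventral library 4.44 CPM. The share of all genes with ranges apart between these parts was not counted. In the shallow regions these levels rest on few reads, with a median of 1.5 Crh counts per library in the ventral hippocampus, 3.5 in the prefrontal cortex and 5 in the cortex.

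Crhr1, the main receptor for CRF, was highest in the cortex (14.4 to 37.8 CPM, median 26.04) and next in the prefrontal cortex (12.3 to 53.1 CPM, median 19.01). The amygdala followed with 9.65 to 25.8 CPM (median 15.9) and the ventral hippocampus with a median of 13.6 CPM. Dorsal hippocampus, ventral striatum and dorsal striatum had medians of 9.56, 8.38 and 7.52 CPM. Crhr2, the receptor preferred by the urocortins, ran in another order, with the amygdala highest at 1.89 to 7.98 CPM (median 4.66). The ventral striatum came second (median 2.51 CPM), and the cortex came last with 5 counts over 11 libraries, 8 of which had none. Crhbp was also highest in the amygdala, at 9.17 to 37.5 CPM (median 30.5). Cortex, prefrontal cortex and dorsal hippocampus had Crhbp medians from 20.9 to 21.2 CPM and the ventral hippocampus 17.7 CPM, while the striatum was low at 6.59 CPM (ventral) and 5.81 CPM (dorsal). For each of these 3 genes, neighbours in the order of regions overlapped.

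Npy, the peptide gene of the second system, spanned a narrower range of regional medians. It was highest in the cortex (35.2 to 81.4 CPM, median 59.3) and next in the dorsal hippocampus (27.3 to 67.4 CPM, median 47.4). The amygdala was the fifth of 7 regions at 11.4 to 77.6 CPM (median 34.9), and the dorsal striatum had the lowest median, 25.7 CPM. Npy1r, the Y1 receptor gene, was highest in the dorsal hippocampus (19.8 to 73.7 CPM, median 41.97) and the ventral hippocampus (median 39.3 CPM) and lowest in the dorsal striatum (median 13.3 CPM). The amygdala had 16.6 to 36.7 CPM (median 27.2). Npy5r, its neighbour on chromosome 8, was likewise highest in the ventral hippocampus (median 10.2 CPM) and dorsal hippocampus (9.88 CPM) and lowest in the dorsal striatum (3.76 CPM). The amygdala was the sixth for Npy5r at 3.57 to 6.43 CPM (median 5.17), below the ventral striatum (5.59 CPM).

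Npy2r, the Y2 receptor gene, had the widest regional spread of the NPY receptors. Ventral hippocampus, dorsal hippocampus and amygdala had medians of 50.7, 48.4 and 48.1 CPM with wide ranges, 11.7 to 71.0 CPM in the amygdala. The ventral striatum followed with 18.9 to 36.3 CPM (median 26.1), and its range lay apart from that of the prefrontal cortex (3.27 to 16.05 CPM, median 10.4). The share of all genes with ranges apart between these regions was not counted. The dorsal striatum had 1.25 to 16.1 CPM (median 9.42) and the cortex 0 to 8.88 CPM (median 2.58), with no count in 2 of 11 cortical libraries. In every other pair of neighbours the ranges overlapped. Of the amygdala libraries, female WT mouse 23 was the lowest for Npy2r at 11.7 CPM and the highest for Npy at 77.6 CPM. Its cortical marker list summed to 2486 CPM, the highest of the 11 libraries, and it had no Ucn3 count; the part of this in its values was not tested.

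**Figure D1:**
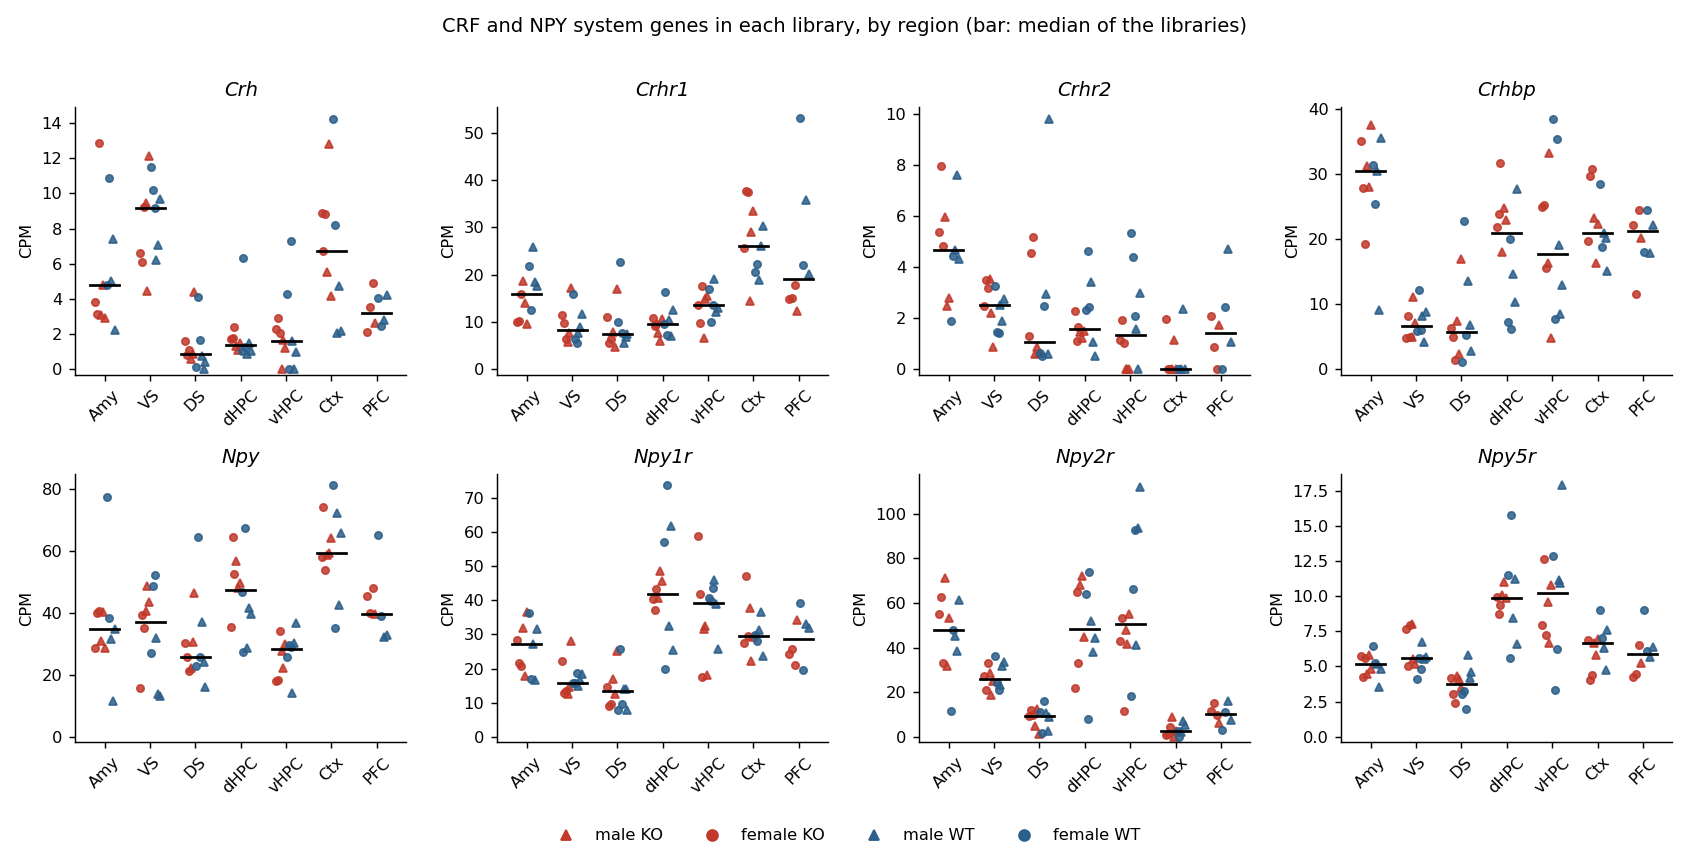
CPM of the 8 genes (y axis, 1 panel per gene) in each of the 78 libraries by region (Amy amygdala, VS and DS ventral and dorsal striatum, dHPC and vHPC dorsal and ventral hippocampus, Ctx cortex, PFC prefrontal cortex). Triangles are male and circles female mice, red is KO and blue WT, and the bar is the median. Crhr2 and Crhbp have their highest median in the amygdala (4.66 and 30.5 CPM), and Npy2r falls from 48.1 CPM there to 2.58 CPM in the cortex.

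The amygdala was then compared with each other region in 1 edgeR fit of all 78 libraries, with sex and genotype as covariates and 16110 genes tested. Differences are log2 fold changes with the standard error (SE) of the fit, and a gene is called at an adjusted p under 0.05. Calls between regions were common among all genes, so the count of members is given beside the share of all genes called. In bulk tissue, fewer cells that express a gene and less RNA per cell cannot be told apart. All libraries of ventral hippocampus, cortex and prefrontal cortex were of the shallower class. In contrasts of the amygdala with these regions, region and depth class cannot be told apart. Against the dorsal striatum 7 of 8 members were called, all of them higher in the amygdala, where 50.3% of all genes were called (26% higher, 24.3% lower). Against the ventral striatum 5 of 8 were called, all higher (41.7% of all genes, 23.2% higher and 18.5% lower). Against the dorsal hippocampus 3 members were higher and 2 lower (35.4% of all genes, 17.9% higher and 17.5% lower). Against the ventral hippocampus 2 were higher and 1 lower (24.3% of all genes, 14.8% higher and 9.53% lower). Against the cortex 2 were higher and 2 lower (40.2% of all genes, 23.8% higher and 16.4% lower), and against the prefrontal cortex 2 were higher (22.1% of all genes, 12.9% higher and 9.14% lower). The median log2 fold change of the 8 members was 0.71 against the ventral striatum and 0.93 against the dorsal striatum, where the medians of all genes were 0.021 and -0.0058.

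Crhr2 was the member called higher in the amygdala in all 6 contrasts. Its log2 fold change was 0.97 ± 0.33 (SE) against the ventral striatum (adjusted p = 0.0138), 0.96 ± 0.32 against the dorsal striatum (adjusted p = 0.0100) and 1.18 ± 0.33 against the dorsal hippocampus (adjusted p = 0.00360). Against the ventral hippocampus it was 1.50 ± 0.48 (adjusted p = 0.0151), against the prefrontal cortex 1.76 ± 0.55 (adjusted p = 0.0146) and against the cortex 3.14 ± 0.66 (adjusted p = 7.27e-05). The last fold rests on the 5 cortical counts and depends on how the fit treats zeros. Without the 6 libraries that stand apart, the difference from the dorsal striatum was 0.67 with an adjusted p of 0.084, and the other 5 contrasts were called. The difference from the prefrontal cortex did not pass without mouse 5 (1.54, adjusted p = 0.0663) or mouse 6 (1.52, adjusted p = 0.0583). In WT libraries alone Crhr2 did not pass against the striatum, the hippocampus (both parts of each) or the prefrontal cortex. Its values there were 0.59 to 1.17, with adjusted p from 0.224 to 0.658. Male libraries alone lost the calls against both parts of the striatum and the prefrontal cortex. Female libraries alone lost those against both parts of striatum and hippocampus. These fits hold fewer samples. Choroid plexus markers were high in some of the libraries with high Crhr2. In the amygdala the list summed to 5606 and 9076 CPM in female KO mice 4 and 5 (16.4 to 521 CPM in the other 9), whose Crhr2 values were 5.39 and 7.98 CPM. Of those other 9, male WT mouse 12 had 7.62 CPM of Crhr2 with 45.96 CPM of the list, and male KO mouse 1 had 5.96 CPM with 32.7 CPM. In the dorsal hippocampus female WT mouse 23 was highest for both, with 4811 CPM of the list and 4.65 CPM of Crhr2. In the dorsal striatum it summed to 2839 CPM in male WT mouse 13, 5475 CPM in female KO mouse 5 and 6594 CPM in female KO mouse 6, and these libraries had the 3 highest dorsal striatal Crhr2 values, 9.80, 4.57 and 5.21 CPM. The part of choroid plexus RNA in the Crhr2 results was not tested.

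Npy2r was called higher in the amygdala against 4 regions. The log2 fold change was 3.82 ± 0.46 against the cortex (adjusted p = 3.15e-10), 2.43 ± 0.28 against the dorsal striatum (adjusted p = 1.99e-11), 2.28 ± 0.41 against the prefrontal cortex (adjusted p = 1.67e-05) and 0.80 ± 0.26 against the ventral striatum (adjusted p = 0.00915). The fold against the cortex rests on 31 cortical counts over 11 libraries, 7 of them at or under the floor of 3 counts. Amygdala and hippocampus overlapped widely for this receptor, with -0.15 ± 0.25 against the dorsal part (adjusted p = 0.695) and -0.25 ± 0.28 against the ventral part (adjusted p = 0.564). Npy1r and Npy5r, the postsynaptic receptors, were instead lower in the amygdala than in the hippocampus. Against the dorsal hippocampus Npy1r differed by -0.80 ± 0.17 (adjusted p = 0.000130) and Npy5r by -1.01 ± 0.14 (adjusted p = 3.24e-08). Against the ventral hippocampus Npy5r differed by -0.90 ± 0.17 (adjusted p = 4.79e-05), and Npy1r by -0.43 ± 0.20, which did not pass (adjusted p = 0.104) except without mouse 10 (-0.55, adjusted p = 0.0296). Both were higher in the amygdala than in the dorsal striatum, Npy1r by 0.91 ± 0.18 (adjusted p = 1.49e-05) and Npy5r by 0.44 ± 0.15 (adjusted p = 0.0113). The Npy5r call was lost without mouse 6 (0.36, adjusted p = 0.0566) and with no low-count filter (0.40, adjusted p = 0.0634). It was lost as well in WT libraries alone (0.36, adjusted p = 0.351) and in male libraries alone (0.11, adjusted p = 0.645). Against the ventral striatum Npy1r was higher by 0.65 ± 0.18 (adjusted p = 0.00193). WT libraries alone lost the calls of Npy2r (0.50, adjusted p = 0.446) and Npy1r (0.65, adjusted p = 0.115) against the ventral striatum. So did female libraries alone (Npy2r 0.61, adjusted p = 0.297, and Npy1r 0.59, adjusted p = 0.0997). Female libraries alone also lost the Npy5r call against the ventral hippocampus (-0.65, adjusted p = 0.2575). These fits hold fewer samples.

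Crh and Crhbp set the amygdala apart from different regions. Crh was called higher in the amygdala than in the dorsal striatum (2.09 ± 0.31, adjusted p = 4.50e-08), the dorsal hippocampus (1.64 ± 0.30, adjusted p = 8.61e-06) and the ventral hippocampus (1.55 ± 0.43, adjusted p = 0.00448). In the ventral hippocampus 10 of 12 Crh values were at or under the floor of 3 counts. The call against that region was lost in WT libraries alone (1.52, adjusted p = 0.138) and in female libraries alone (1.19, adjusted p = 0.269). Against the ventral striatum the Crh difference was -0.57 ± 0.28 and not called (adjusted p = 0.0909). With the mouse as a block the value was -0.69 and passed (adjusted p = 0.0339), and it passed as well without mouse 6 (-0.77, adjusted p = 0.0293), whose amygdala had the highest Crh value, 12.9 CPM. Crhbp was called against the striatum alone, by 1.99 ± 0.28 (ventral, adjusted p = 1.76e-08) and 1.89 ± 0.28 (dorsal, adjusted p = 3.11e-08). Without the libraries that stand apart, the Crhbp difference from the dorsal hippocampus, 0.51 ± 0.26 in all libraries (adjusted p = 0.121), was 0.64 with an adjusted p of 0.0180. The amygdala of male WT mouse 12, with the hypothalamic markers, had the lowest Crhbp value of the region (9.17 CPM, 19.3 CPM or more in the other 10) and the lowest Npy value (11.4 CPM).

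Crhr1 and Npy were the members called lower in the amygdala than in the cortex. Crhr1 differed by -0.78 ± 0.23 (adjusted p = 0.00388) and Npy by -0.76 ± 0.21 (adjusted p = 0.00207). In WT libraries alone neither passed (Crhr1 -0.34, adjusted p = 0.538, and Npy -0.76, adjusted p = 0.179). Male libraries alone lost the Crhr1 call (-0.56, adjusted p = 0.149) and female libraries alone the Npy call (-0.49, adjusted p = 0.308). These fits hold fewer samples. Crhr1 was higher in the amygdala than in ventral striatum (0.76 ± 0.20, adjusted p = 0.00126), dorsal striatum (0.77 ± 0.20, adjusted p = 0.000873) and dorsal hippocampus (0.66 ± 0.20, adjusted p = 0.00592). Female libraries alone lost all of these Crhr1 calls (0.61, 0.42 and 0.41, adjusted p = 0.127, 0.303 and 0.412). Npy passed in no other contrast of the amygdala, with values from -0.41 to 0.49. Its difference from the dorsal hippocampus was called with the mouse as a block (-0.46, adjusted p = 0.0447) and without mouse 23 (-0.62, adjusted p = 0.00320). Without the libraries that stand apart it was called against the dorsal striatum (0.54, adjusted p = 0.00618) and the ventral hippocampus (0.64, adjusted p = 0.0156). The latter was called as well without mouse 12 (0.62, adjusted p = 0.0351).

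**Figure D2:**
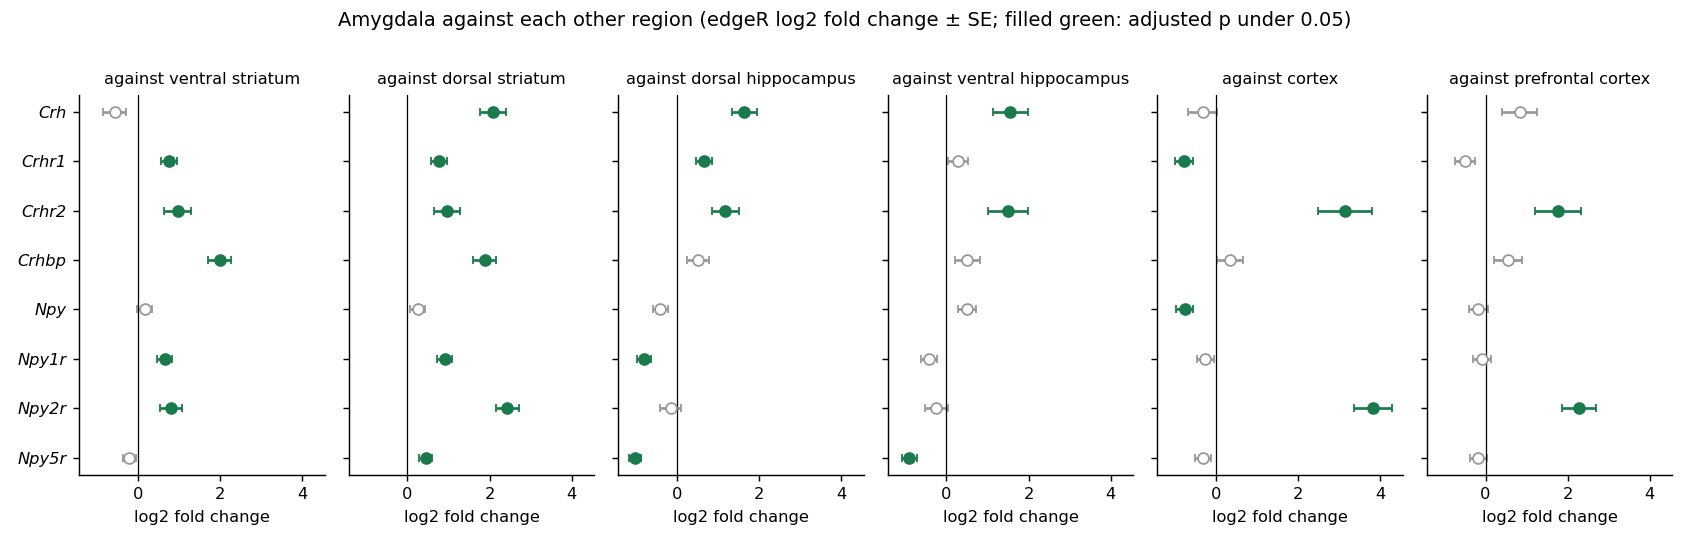
Log2 fold change of the amygdala against each other region (x axis, bars are the SE of the edgeR fit) for the 8 genes (rows). Filled green points are called at an adjusted p under 0.05 and open grey points are not. Crhr2 lies to the right in all 6 panels (0.96 to 3.14), while Npy5r lies to the left against both parts of the hippocampus (-1.01 and -0.90).

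Within the striatum the dorsal and ventral parts differed in 3 of 8 members, all higher in the ventral part, where 12.6% of all genes were called (6.34% higher, 6.23% lower). Crh had the largest difference of the 8, 2.66 ± 0.31 on the log2 scale (adjusted p = 4.77e-09), and ranked 3 among the 16110 genes by p. It was 3.19 without the libraries that stand apart (adjusted p = 7.28e-12). Npy2r was higher by 1.63 ± 0.28 (adjusted p = 1.65e-05) and Npy5r by 0.65 ± 0.15 (adjusted p = 0.00164). The Npy5r call was lost in WT libraries alone (0.46, adjusted p = 0.446) and in male libraries alone (0.42, adjusted p = 0.199). Within the hippocampus only Npy was called (19.2% of all genes, 6.9% higher and 12.3% lower), lower in the ventral part by -0.90 ± 0.22 (adjusted p = 0.00137). It was not called in WT libraries alone (-0.64, adjusted p = 0.379) or in male libraries alone (-0.77, adjusted p = 0.130). The ventral part was also of the shallower depth class, so part and depth class cannot be told apart here. Between prefrontal cortex and cortex no member was called by edgeR (29.2% of all genes, 15.5% higher and 13.7% lower), although 3 had an unadjusted p under 0.05. These were Crh (-1.16 ± 0.48), Npy (-0.59 ± 0.25) and Npy2r (1.55 ± 0.65), with adjusted p from 0.0606 to 0.0657. DESeq2's Wald test called all 3, with adjusted p of 0.0466, 0.0395 and 0.00417. With the mouse as a block edgeR called Npy2r (1.67, adjusted p = 0.0362), as it did without mouse 23 (1.53, adjusted p = 0.0428). Without the libraries that stand apart it called Crh (-1.20, adjusted p = 0.0195) and Npy (-0.57, adjusted p = 0.0374).

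KO and WT mice were compared in each region over both sexes, the comparison for which the mice were made. No member was called in any of the 7 regions. In the amygdala 1 of 14813 genes tested was called (0.00675%), which was Acss2. The members' median log2 fold change there was 0.027, the median of all genes 0.0014, and 1 of 8 members had an unadjusted p under 0.05, which 3.41% of all genes had. That member was Crhr1. Its values were 18.6, 9.65 and 14.04 CPM in male KO mice 1, 10 and 2 and 9.94, 10.3 and 15.9 CPM in female KO mice 4, 5 and 6. In WT mice they were 18.5, 17.7 and 25.8 CPM (male mice 12, 13 and 3) and 21.9 and 12.46 CPM (female mice 23 and 24). The KO libraries sat lower on average (13.1 ± 3.71 CPM, SD, n = 6, against 19.3 ± 5.001 CPM, SD, n = 5) and the groups overlapped. The log2 fold change was -0.53 ± 0.22 (unadjusted p = 0.0317, adjusted p = 0.994).

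The other amygdala values showed no gap between genotypes either. Crh had 2.92 to 12.9 CPM in KO (median 3.50) and 2.22, 4.79, 5.04, 7.38 and 10.9 CPM in WT mice (log2 fold change -0.32 ± 0.42, adjusted p = 0.994). Female KO mouse 6 was the highest, and the next KO library had 4.82 CPM. Crhr2 had 2.48 to 7.98 CPM in KO (median 5.12) and 1.89 to 7.62 CPM in WT libraries (median 4.46), with a log2 fold change of 0.097 ± 0.37. The 3 female KO libraries (4.85, 5.39 and 7.98 CPM) lay above both female WT libraries (1.89 and 4.46 CPM), an arrangement that 10.5% of the genes tested there had. In males the order was turned, with 2.48, 2.81 and 5.96 CPM in KO and 4.31, 4.66 and 7.62 CPM in WT libraries. This difference between the sexes had an unadjusted p of 0.0444 and an adjusted p of 0.880 (male minus female KO effect, -1.43 ± 0.62), and the choroid plexus list of female KO mice 4 and 5 stands beside it. Crhbp had a median of 29.6 CPM in KO and 30.5 CPM in WT libraries (log2 fold change 0.18 ± 0.30).

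Among the NPY genes of the amygdala, Npy had 28.6 to 40.6 CPM in KO (median 35.5) and 11.4 to 77.6 CPM in WT libraries (median 34.9), and both ends of the WT range came from mice 12 and 23, whose marker lists are given above. The log2 fold change was -0.12 ± 0.33. It was -0.36 without the library of mouse 12 and 0.23 without that of mouse 23. Npy2r had 31.5 to 71.0 CPM in KO (median 54.1) and 11.7 to 61.2 CPM in WT libraries (median 45.3), with a log2 fold change of 0.40 ± 0.34. Npy1r (0.036 ± 0.26) and Npy5r (0.017 ± 0.18) had the smallest differences, with medians of 25.1 and 5.22 CPM in KO and 27.2 and 5.17 CPM in WT libraries. Adjusted p was 0.994 or above for all 8 members. Without the amygdala of mouse 12, the signs of Crhbp, Npy1r and Npy5r turned, at -0.049, -0.11 and -0.085.

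**Figure D3:**
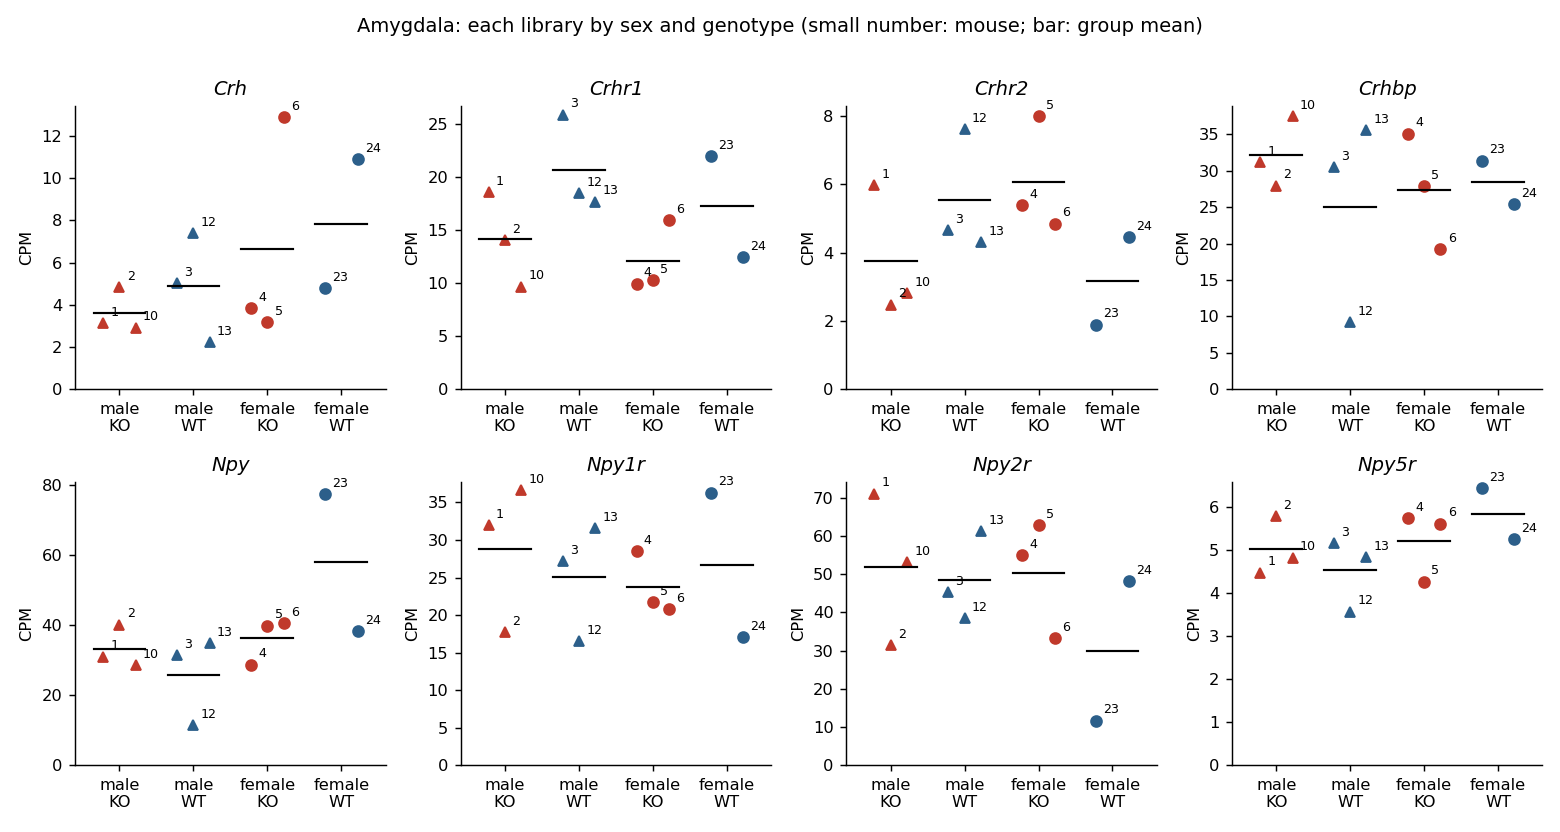
CPM of the 8 genes (y axis) in each amygdala library by sex and genotype. Small numbers are mice and bars are group means. KO and WT points overlap in every panel when both sexes are pooled. Mouse 23 holds the highest Npy (77.6 CPM) and lowest Npy2r (11.7 CPM) value, and mouse 12 the lowest Crhbp value (9.17 CPM).

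All 8 members were tested in the other deep regions. In the ventral striatum 0.00721% of genes were called, and no member had an unadjusted p under 0.05 (7.28% of all genes). In the dorsal striatum (0.00702% of genes called) no member had one either (1.59% of all genes), and in the dorsal hippocampus (0.00702%) 1 of 8 did (2.83%). The member with the smallest p in the ventral striatum was Npy5r, which had a log2 fold change of 0.28 ± 0.19 (adjusted p = 0.663). In the dorsal striatum it was Crh, with 0.64 ± 0.84 (adjusted p above 0.99 for all 8) and its highest KO value, 4.38 CPM, in male mouse 10. In the dorsal hippocampus it was Crhbp. KO libraries had 18.1, 22.9 and 24.8 CPM (males) and 21.9, 23.8 and 31.7 CPM (females), and WT libraries 10.4, 27.7 and 14.7 CPM (males) and 7.32, 19.998 and 6.15 CPM (females). The 3 female KO values lay above the female WT values, as in 3.47% of the genes tested there, and the male groups overlapped. The log2 fold change over both sexes was 0.78 ± 0.30 (unadjusted p = 0.0229, adjusted p above 0.99).

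In the ventral hippocampus 6 members could be tested (0.00951% of genes called), since Crh and Crhr2 were under the count filter, and 1 of the 6 had an unadjusted p under 0.05 (5.08% of all genes). Npy2r had the smallest p there. KO libraries had 48.0, 55.2 and 41.5 CPM (males 1, 10 and 2) and 43.1, 53.4 and 11.4 CPM (females 4, 5 and 6), and WT libraries had 93.5, 112.2 and 41.3 CPM (males 12, 13 and 3) and 18.2, 66.3 and 92.6 CPM (females 11, 23 and 24). The 4 highest values were WT, and the groups overlapped. The log2 fold change was -0.78 ± 0.33 (unadjusted p = 0.0335, adjusted p = 0.965), and -0.62 without the library of female KO mouse 6, which held the striatal markers. With no filter on low counts 101 genes were called in this comparison, Npy2r among them (adjusted p = 0.00169). In the cortex (0.00977% of genes called) Crhr1, Crhbp, Npy and Npy1r were tested, none with an unadjusted p under 0.05 (6.54% of all genes), and Crhr1 had the smallest p with 0.28 ± 0.23 (adjusted p = 0.844).

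Among the members that passed the count filter, the largest fitted genotype difference was that of Crhr1 in the prefrontal cortex. Crhr1 had 12.3 CPM in the male KO library of mouse 1 and 14.8, 15.1 and 17.9 CPM in female KO mice 4, 5 and 6. In WT mice it had 20.1 and 35.9 CPM (male mice 12 and 3) and 53.1 and 22.03 CPM (mice 11 and 23, labelled female). All 4 KO libraries lay below all 4 WT libraries, a pattern that 1.88% of the 11300 genes tested there had. The log2 fold change was -1.26 ± 0.30 (unadjusted p = 0.000737) and the adjusted p, 0.111, did not pass in a comparison that called 11 genes (0.0973%) and in which 8.58% of genes had an unadjusted p under 0.05. Female libraries alone gave -1.31 and male libraries alone, with 1 KO library, -1.18. Crhr1 did pass without mouse 12 (-1.35, adjusted p = 0.0461, 102 genes called), without mouse 23, whose label is in doubt (-1.56, adjusted p = 0.0197, 76 genes called), and with no low-count filter (-1.25, adjusted p = 0.000590, 367 genes called). Without mouse 11, which had the highest value, the log2 fold change was -0.79 and the adjusted p 0.999, with 7 genes called.

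Marker lists moved with this difference. Striatal projection neuron markers summed to 583, 1678, 602 and 1192 CPM in KO mice 4, 5, 6 and 1 and to 187, 323, 287 and 267 CPM in WT mice 11, 23, 12 and 3. Of the 11 called genes, Adora2a (3.09 ± 0.44), Rgs9 (2.60 ± 0.36), Drd1 (2.57 ± 0.44) and Ppp1r1b (2.28 ± 0.34), all of that list, were higher in KO, and Cux2, a marker of upper cortical layers, was lower (-1.05 ± 0.19). These 5 were named after their values were seen. The oligodendrocyte list summed to 2405 to 10710 CPM in KO and 1675 to 3131 CPM in WT libraries. The hypothalamus list was low in both but did not overlap either, with 0 to 10.6 CPM in KO and 11.01 to 33.5 CPM in WT libraries, and nor did the stress-axis list (0 to 9.50 CPM and 11.01 to 35.1 CPM), which shares Avp, Oxt, Pomc and Trh with it. Their part in the Crhr1 difference was not tested. The other 4 members tested in the prefrontal cortex, Crhbp, Npy, Npy1r and Npy2r, had log2 fold changes from -0.20 to 0.21.

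**Figure D4:**
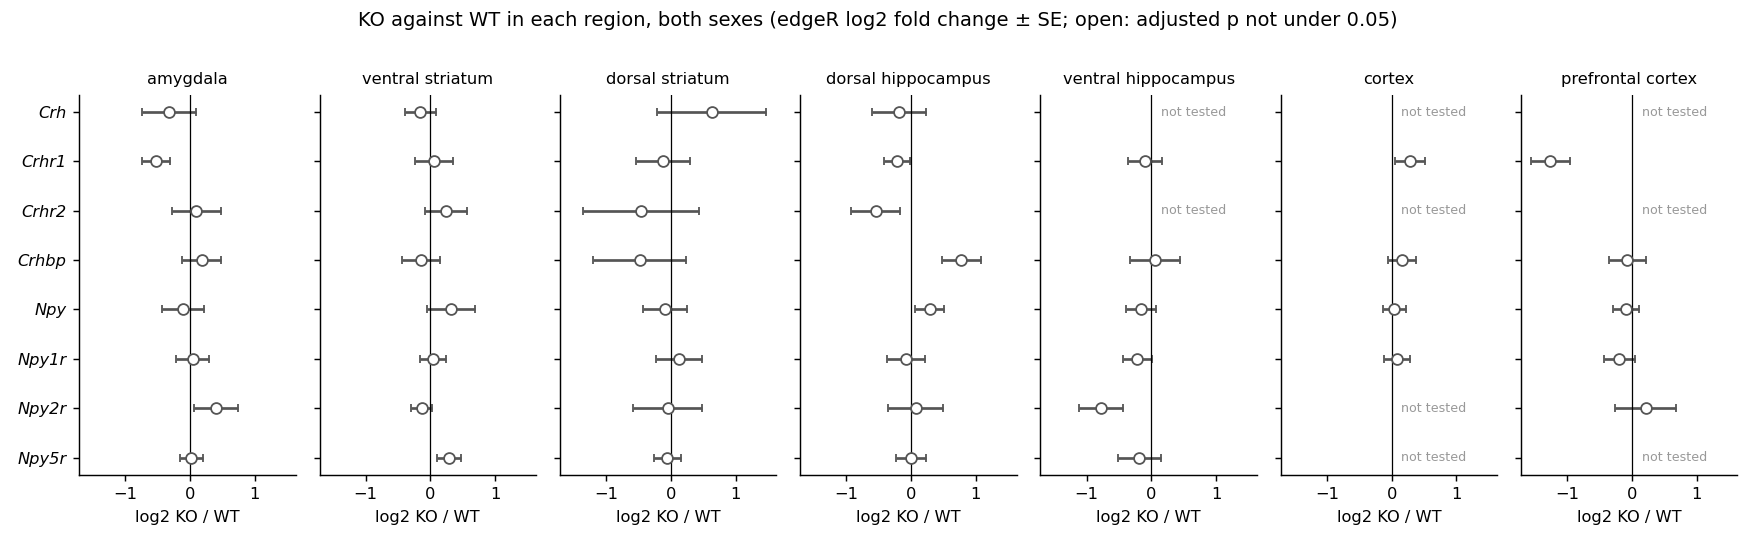
Log2 fold change of KO against WT (x axis, bars are the SE of the edgeR fit) for the 8 genes (rows) in each region over both sexes. All points are open because no adjusted p was under 0.05, and genes under the count filter are marked as not tested. Crhr1 in the prefrontal cortex lies farthest from 0 at -1.26.

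Males and females were deposited in separate count tables, so that sex and table cannot be told apart. In no region did edgeR call a member between the sexes, and 1 member each had an unadjusted p under 0.05 in the dorsal striatum, dorsal hippocampus and prefrontal cortex. In the amygdala 0.0405% of genes were called and 17.8% had such a p, and the members ranged from -0.35 ± 0.34 (Npy2r) to 0.77 ± 0.42 (Crh), females against males, with adjusted p of 0.364 or more. Over all genes, the percentages called and those with an unadjusted p under 0.05 were 0.0432% and 2.9% for ventral striatum, 0.0492% and 8.17% for dorsal striatum, and 0.0421% and 4.08% for dorsal hippocampus. They were 0.0476% and 4.19% for ventral hippocampus, 0.0879% and 3.57% for cortex and 0.0442% and 6.37% for prefrontal cortex. The prefrontal female group holds the library of mouse 23 that goes against its label. Without mouse 23, 13 genes were called there (0.115%), 7.35% had an unadjusted p under 0.05, and 2 of 5 members did, Npy (0.60 ± 0.23, adjusted p = 0.536, against 0.49 ± 0.22 with it) and Crhr1 (0.73 ± 0.29, adjusted p = 0.561, against 0.45 ± 0.31). Whether the KO effect differed by sex was tested as an interaction in the 6 regions other than the prefrontal cortex. No member was called, and edgeR called no gene at all in any of the 6 (0%); at an unadjusted p under 0.05 there were 193 to 714 genes per region and up to 1 member. The shares of genes with such a p were 4.42% in the amygdala, 3.84% and 4.76% for ventral and dorsal striatum, 1.33% and 6.63% for dorsal and ventral hippocampus and 5.41% in the cortex. DESeq2's Wald test called 1 gene each in the amygdala and dorsal hippocampus and none in the other 4. With no low-count filter edgeR called 12 genes in the ventral striatum, 117 in the ventral hippocampus, 4 in the cortex and 1 in the dorsal hippocampus, and again no member.

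Interaction values were planned to be named for the amygdala alone, and those of the striatum given next were picked in addition. In the cortex Crh had the smallest interaction p of the members tested, unadjusted under 0.05 and adjusted 0.893, at a median of 5 counts per library. In the ventral striatum the member with the smallest interaction p was Npy. Male KO mice 1, 10 and 2 had 40.7, 43.6 and 48.9 CPM, and male WT mice 12, 13 and 3 had 13.96, 13.2 and 31.9 CPM. The male groups did not overlap, as in 6.23% of the 13878 genes tested. Without the libraries of mice 10 and 13 the 2 KO values lay above the 2 WT values, as in 17.7% of these genes. Female KO mice 4, 5 and 6 had 15.8, 39.3 and 35.2 CPM, and female WT mice 11, 23 and 24 had 27.2, 48.8 and 52.2 CPM, with overlap. Male libraries alone gave a log2 fold change of 1.21 ± 0.33 (unadjusted p = 0.00702, adjusted p = 0.493) and female libraries alone -0.55 ± 0.39 (adjusted p above 0.99). Their difference was 1.75 ± 0.57 (unadjusted p = 0.00939, adjusted p = 0.943), and 1.53 without the libraries of mice 10 and 13. Cortical excitatory markers summed to 257, 1392 and 1084 CPM in male KO mice 1, 10 and 2 and to 198, 258 and 386 CPM in male WT mice 12, 13 and 3, and their part in the Npy values was not tested.

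Crhr2 in the dorsal striatum had the largest interaction value, -4.22 ± 1.27 (unadjusted p = 0.00676, adjusted p = 0.769). Its female KO values were 1.29, 4.57 and 5.21 CPM and its male WT values 0.622, 9.80 and 2.97 CPM, while male KO libraries had 0.593, 0.626 and 0.874 CPM and female WT libraries 0.645, 0.513 and 2.49 CPM. The high values are those of the libraries with choroid plexus markers described above. In the amygdala the interaction values of the other members ran from -0.59 ± 0.69 (Npy2r) to 1.11 ± 0.59 (Npy).

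**Figure D5:**
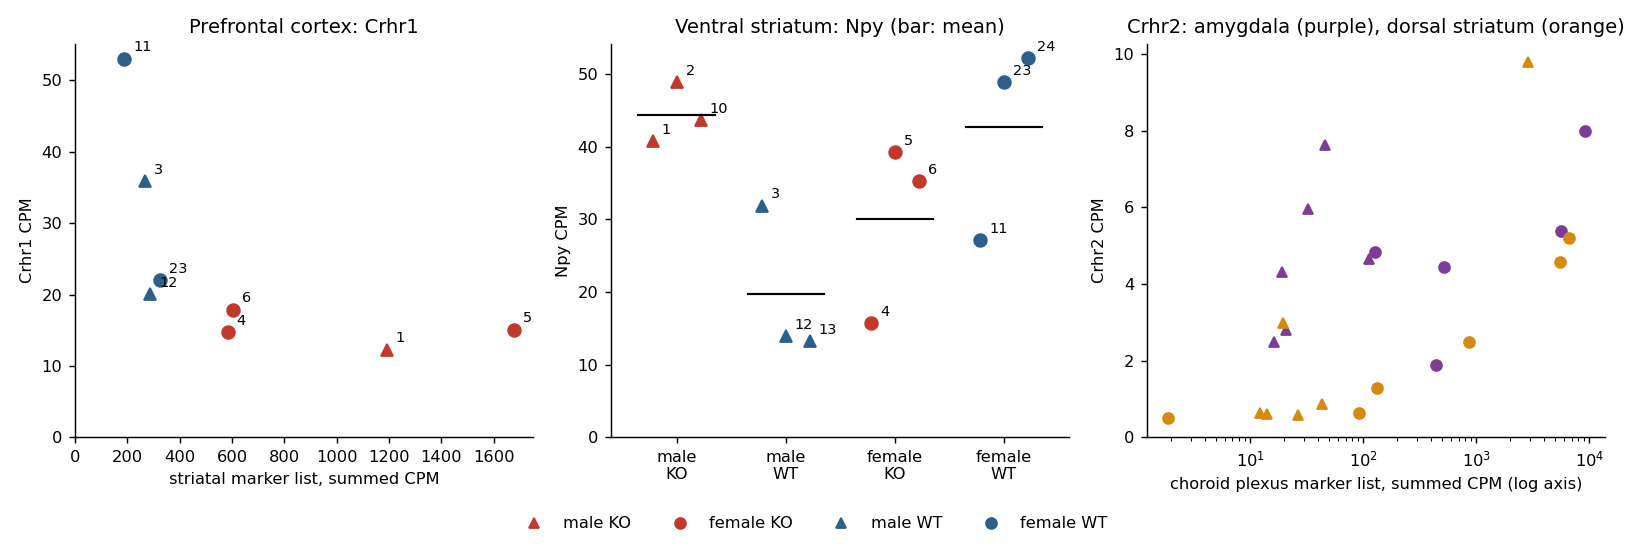
Left, Crhr1 CPM against the summed CPM of the striatal marker list in the 8 prefrontal cortex libraries; middle, Npy CPM in the ventral striatum by sex and genotype with group means as bars; right, Crhr2 CPM against the summed CPM of the choroid plexus list (log axis) in amygdala (purple) and dorsal striatum (orange), triangles for males and circles for females. Red is KO and blue WT in the left and middle panels, and small numbers are mice. KO libraries sit at lower Crhr1 and higher striatal markers (583 to 1678 CPM) than WT libraries (187 to 323 CPM).

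The other genes of the pathways were taken from 5 lists of 41 genes in all: further ligands and receptors of the families, peptide processing, other stress-axis peptides and receptors, G proteins with arrestins and CREB factors, and other neuropeptides and interneuron markers. In none of the 7 KO and WT comparisons was a listed gene called, with 24 to 32 tested per region. Of the family's other ligands and receptors, only Ucn3, which encodes the CRFR2 ligand urocortin 3, was tested between regions. It had 0 to 15.6 CPM in the amygdala (median 10.7, no count in 3 of 11 libraries) and 0 to 9.03 CPM in the ventral striatum (median 0.958), a log2 fold change of 2.64 ± 0.55 (adjusted p = 0.000101). No Ucn3 count was found in the ventral hippocampus or the cortex, and at most 4 counts in any library of the dorsal striatum, dorsal hippocampus and prefrontal cortex. Pyy and Ppy, which encode the other ligands of the NPY receptor family, had no count in any library, and Ucn, Ucn2, Npy4r and Npy6r had 5 counts or fewer in each. Across all 5 lists, 27 of 33 genes tested were called between amygdala and dorsal striatum (21 higher, 6 lower), where 50.3% of all genes were. Against the ventral striatum 20 of 33 were called (16 higher, 4 lower), beside 41.7% of all genes. Against the hippocampus it was 23 for the dorsal part (20 higher, 3 lower) and 15 for the ventral part (13 higher, 2 lower), beside 35.4% and 24.3% of all genes. Against the cortex it was 20 (14 higher, 6 lower) and against the prefrontal cortex 12 (10 higher, 2 lower), beside 40.2% and 22.1%. Of the 6 peptide processing genes, which include the convertases Pcsk1 and Pcsk2 and the amidating enzyme Pam, 3 were called against the dorsal striatum (2 higher, 1 lower). Of the 10 signalling partners 8 were called there (5 higher, 3 lower).

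Among the listed genes called, Avp, the vasopressin gene, and Ucn3 were both among the 3 with the largest difference in each of the 6 amygdala contrasts. Ucn3 had the largest difference against the dorsal hippocampus (7.72 ± 0.89), ventral hippocampus (8.18 ± 1.59) and cortex (8.28 ± 1.70). Without the libraries that stand apart these values were 7.62, 8.10 and 8.12. With no or almost no Ucn3 count in those regions, they depend on how the fit treats zeros. The Avp level in the amygdala reached 912 CPM in a region with a median of 5.42 CPM. Its log2 fold change against the dorsal striatum was 7.48 ± 0.88, or 5.08 without the libraries that stand apart. Trh, the thyrotropin-releasing hormone gene, was higher by 5.13 ± 0.55 against the dorsal hippocampus (5.13 without those libraries), and Oxt, the oxytocin gene, by 5.71 ± 0.98 against the dorsal striatum (3.23 without them). Against the prefrontal cortex Oxt was 4.27 ± 1.44, and 2.22 without them, which did not pass (adjusted p = 0.145). Cck, a neuropeptide of cortical and amygdalar neurons, was higher by 2.72 ± 0.37 than in the ventral striatum.

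The genes whose log2 CPM followed each member most closely (Pearson r) over the 28 means of sex, genotype and region are given as a description, since the means share regions and mice. For Npy1r they were Rtn4rl1, Neurod1 and Tnks1bp1 (r = 0.94, 0.94 and 0.93), for Crhbp Cnih3, Lrrc73 and Hspbp1 (0.94, 0.93 and 0.93), and for Crhr1 Lasp1, Cux2 and Stx1a (0.89, 0.88 and 0.87). For Npy2r they were Pkp2, Magee2 and Htr4 (0.89, 0.89 and 0.88), for Npy5r Epha3, Btbd3 and Sipa1l2 (0.84, 0.82 and 0.82), and for Crhr2 Spint2, Necab2 and Pi16 (0.83, 0.82 and 0.80). The peptide genes had Dmtn and Septin5 (Npy, 0.83 and 0.81) and 4930452B06Rik, Cartpt and AI854703 (Crh, 0.84, 0.81 and 0.73). Between members, the highest values were those of Npy1r with Crhbp (r = 0.76) and with its neighbour Npy5r (r = 0.73), and the lowest that of Crhr1 with Npy2r (r = -0.47).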

How the data were processed

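Per the labels' protocols, poly(A) RNA was selected from a 300 ng input of total RNA for each library. The authors deposited raw read counts per gene symbol, not normalized, in 1 table for males and 1 for females. The submitters' processing notes name STAR 2.5.2a, SAMtools 1.1, HTSeq 0.6.1, DESeq2 and R 4.0.2 and the builds GRCm38 and mm10, without saying which step each served, and whether counting used strand is not given in the sources used here. Columns were matched to mice by the labels.

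CPM is the count per 1000000 counts of the column's total, and CPM per kilobase divides by exonic length in GENCODE M21. Tests used edgeR 4.0.16 (TMM factors, quasi-likelihood, limma 3.58.1, R 4.3.3) with filterByExpr (minimum count 10, minimum total 15) and Benjamini-Hochberg adjustment over all genes tested at 0.05. KO was compared with WT per region with sex as covariate, the sexes in the same fit, their interaction in a fit with both terms, and regions in 1 fit of all 78 libraries with sex and genotype. Procedures were tested on simulated data. Tables were made with Python 3.11.15, pandas 2.3.3 and numpy 2.4.6. Within a region each mouse gave 1 library, so the p-values for genotype, sex and interaction measure the spread between mice. The main fit of regions had no mouse block, so its p-values measure the spread between libraries. Several of these libraries came from the same mouse.

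The same mouse number marks the same animal in the labels, which pairs the regions. Deviations from group means had a median correlation of 0.0129 over 210 pairs of libraries of 1 mouse and -0.0048 over 423 pairs of different mice. Alternatives were DESeq2 size factors, no low-count filter, DESeq2's Wald test (version 1.42.0), the sexes or WT alone, the mouse as a block, leaving out each mouse in turn, and leaving out the prefrontal library whose label is in doubt. Leaving out the 6 libraries that stand apart (an own-region list under 0.25 of the regional median, or another region's list above 10 times it) and fitting the 4 deeper regions alone were chosen after seeing the data.

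Members and gene lists were chosen with earlier results of these data known. All members are named, with KO values for all members in the amygdala and for the member with the smallest p elsewhere. Listed genes are named where called between KO and WT, and the 3 largest called differences in each amygdala contrast. The 3 genes most like a member were taken by Pearson correlation of log2 CPM (prior count 2) over 28 group means, and 1 of those is not reported here. Males KO and WT in the prefrontal cortex, with 1 KO library, were given no interaction test.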

Additional observations from a re-analysis of the deposited data

Results flagged for a closer look

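Of 112 sets, each of 1 member in the libraries of 1 genotype and region, 10 had a value far from the others by Dixon's criterion. Chance gives this in about 1 of 20 independent sets of normal values. The sets here share libraries, pool both sexes and include zero counts, so that rate may not hold for them. Of these 10, 5 come from libraries whose region markers stand apart. In the dorsal striatum of female WT mouse 23, Crhr1 was 22.6 CPM (next WT value 9.99 CPM) and Npy1r 25.7 CPM (next 13.997 CPM). In the dorsal striatum of male KO mouse 10, Crh was 4.38 CPM (next 1.62 CPM) and Npy 46.6 CPM (next 30.7 CPM). In the ventral hippocampus of female KO mouse 6, Npy2r was lowest at 11.4 CPM, where the next KO value was 41.5 CPM.

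The other 5 come from libraries not set apart by those lists. Crh was 12.9 CPM in the amygdala of female KO mouse 6 (next 4.82 CPM) and 6.36 CPM in the dorsal hippocampus of female WT mouse 23 (next 1.48 CPM). Crhr2 was 9.80 CPM in the dorsal striatum of male WT mouse 13, which held choroid plexus markers, with 2.97 CPM next. In the cortex of male WT mouse 12 it was 2.37 CPM, a value of 2 counts where the other 4 WT libraries had none. Npy1r was lowest in the ventral hippocampus of male WT mouse 13 at 25.8 CPM, with 38.9 CPM next.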

How the results depend on the processing

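Counts of members called were within 1.5 times the reported ones in 155 of 171 pairs of a comparison and another setting. The same held in 324 of 334 pairs of a comparison and a mouse left out. In most comparisons the reported count was 0, and 0 in both was taken as within this limit. These shares therefore say little about the comparisons with members called. With no low-count filter 1 member was called between KO and WT in the ventral hippocampus (Npy2r) and 1 in the prefrontal cortex (Crhr1). In fits of WT libraries alone 2 members were called between amygdala and ventral striatum, 1 against the ventral hippocampus, 2 against the cortex, 1 against the prefrontal cortex and 0 between the parts of the hippocampus. In female libraries alone 1 was called between amygdala and ventral striatum, 3 against the dorsal and 0 against the ventral hippocampus. In male libraries alone 1 was called between amygdala and prefrontal cortex and 0 between the parts of the hippocampus. These fits hold fewer samples. Between prefrontal cortex and cortex, where none was called, 1 was called with the mouse as a replicate block, 1 with no filter, 2 without the libraries that stand apart and 3 by DESeq2's Wald test. The block changed 3 calls of members, given above: Crh between amygdala and ventral striatum, Npy between amygdala and dorsal hippocampus, and Npy2r between prefrontal cortex and cortex.

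With 1 mouse removed in turn, 0 to 1 members were called between KO and WT in the prefrontal cortex, 1 to 2 between amygdala and prefrontal cortex and 0 to 1 between prefrontal cortex and cortex. Some values changed sign. Between KO and WT in the amygdala, leaving out 1 mouse gave -0.049 to 0.32 for Crhbp, -0.22 to 0.32 for Crhr2, -0.36 to 0.23 for Npy, -0.11 to 0.31 for Npy1r and -0.085 to 0.12 for Npy5r, and in the dorsal striatum -0.17 to 1.45 for Crh. Between the sexes in the amygdala it gave -0.26 to 0.054 for Crhbp, -0.16 to 0.35 for Crhr2 and -0.41 to 0.0031 for Npy1r. Interactions there ran from -0.78 to 0.82 for Crh, -0.47 to 0.42 for Crhr1, -0.24 to 0.93 for Npy1r and -1.89 to 0.062 for Npy2r. Between ventral and dorsal striatum the ranges were -0.25 to 0.11 for Crhbp, -0.070 to 0.23 for Crhr1, -0.19 to 0.40 for Crhr2 and -0.0028 to 0.18 for Npy. Between ventral and dorsal hippocampus they were -0.28 to 0.50 for Crh, -0.17 to 0.17 for Crhbp, -0.019 to 0.29 for Npy2r and -0.25 to 0.049 for Npy5r.

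Without the libraries that stand apart, the KO values in the amygdala turned to -0.049 for Crhbp, -0.11 for Npy1r and -0.085 for Npy5r, the interactions there to 0.27 for Crh and -0.060 for Crhr1, and Crhbp between ventral and dorsal striatum to 0.44. Female libraries alone turned the KO value in the amygdala to -0.091 for Crhbp, -0.22 for Npy1r and -0.20 for Npy5r, that of Crh in the dorsal striatum to -0.75, Crhr1 and Crhr2 between the parts of the striatum to -0.19 and 0.059, and Crhr2 between the parts of the hippocampus to 0.067. Male libraries alone turned the KO value in the amygdala to -0.52 for Crhr2 and 0.39 for Npy, Npy between amygdala and ventral striatum to -0.015, Npy1r between prefrontal cortex and cortex to 0.073, and Crh, Crhbp and Npy5r between the parts of the hippocampus to -0.55, -0.39 and 0.13. WT libraries alone turned Crh between amygdala and cortex to 0.040, Crhr1 and Npy between the parts of the striatum to -0.11 each, Crhr2 and Npy5r between the parts of the hippocampus to 0.18 and 0.0085, and Crhr1 between prefrontal cortex and cortex to 0.38. Crhr2 between the parts of the striatum turned to 0.064 with the replicate block, 0.059 by the Wald test and 0.0034 in the 4 deeper regions alone. None of these values passed in either fit, and the cause was not tested.

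Over all genes, calls between KO and WT in the prefrontal cortex rose from 11 to 367 with no filter, 46 by the Wald test, 102 without mouse 12 and 76 without mouse 23, in the ventral hippocampus from 1 to 101 and in the cortex from 1 to 10 with no filter. Calls between the sexes rose from 6 to 71 with no filter and 545 by the Wald test in the amygdala, from 7 to 35 by the Wald test in the dorsal striatum, from 5 to 132 with no filter in the ventral hippocampus, from 9 to 16 with no filter in the cortex and from 5 to 144 with no filter and 17 by the Wald test in the prefrontal cortex. In the 3 shallower regions 17 of 31 Crh values and 28 of 31 Crhr2 values are at or under the floor of 3 counts, which limits the precision of differences there. The same holds for 7 of 11 Npy2r values in the cortex.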

Other observations

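The balance of the Y1 and Y2 receptor genes differed in its level between regions. Per length of exonic sequence, the median log2 ratio of Npy1r to Npy2r was -0.98 in the amygdala, with Npy2r higher in all libraries but 1 of 11, and -0.71 in the ventral striatum. It was near 0 in the dorsal striatum (0.18) and dorsal hippocampus (-0.11) and -0.51 in the ventral hippocampus. In the cortex Npy1r was higher in 11 of 11 libraries (median 3.36 over the 9 with counts of both) and in the prefrontal cortex in 8 of 8 (median 1.06). The ratio of Crhbp to Crh had a median of 2.26 on the log2 scale in the amygdala and of -0.97 in the ventral striatum. No test was made of these ratios.

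Within the amygdala, deviations of the 11 libraries from their group means are given as a description, since 11 libraries of 4 groups leave few free points and the libraries share dissection differences. Crhr2 and Npy5r deviated in opposite directions (Pearson r = -0.90), as did Crh and Crhbp (r = -0.70). Crhbp and Npy1r (r = 0.72) and Npy and Npy5r (r = 0.72) deviated together. The genes that followed each member most closely there were Itgav for Npy1r (r = 0.99), Smpd1 for Crhbp and Nfrkb for Crh (r = 0.98 each), Ppp2r5a for Npy and Morn2 for Crhr2 (r = 0.97 each), Wapl for Npy2r and Bmt2 for Npy5r (r = 0.96 each), and Polb for Crhr1 (r = 0.95).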
